A study of Homo sapiens with 4 samples.

Results

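LIM-homeobox genes encode transcription factors that carry a pair of zinc-binding LIM domains ahead of a DNA-binding homeodomain. The set described here holds 10 of them, LHX1, LHX2, LHX3, LHX4, LHX5, LHX6, LHX8, LHX9, ISL1 and ISL2, taken by symbol from a count table of 35606 genes. All 10 had a row. The set was put together with results of this comparison already known, so the members' own differences between groups are given as a description, with no p-value. LMX1A and LMX1B belong to the same family but not to the set, and are given beside it.

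The libraries came from K562, an established line of human leukaemia cells that express globin genes. There were 2 groups of 2 libraries each: K562 cells expressing JAZF1-SUZ12, and mock K562 cells. JAZF1-SUZ12, known from endometrial stromal sarcoma, fuses JAZF1 to SUZ12, which is a core subunit of Polycomb repressive complex 2 (PRC2). The labels state neither how the fusion was delivered, nor what the mock cells received, nor whether the libraries of a group came from separate cultures, so p-values measure only the spread between these libraries, which may be technical.

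In an embryo, LIM-homeodomain factors give neurons, pituitary cells, gonad, limb and other tissues their identity. The LIM domains bind the cofactor LDB1, which holds 2 factors in one complex on DNA, and LIM-only proteins such as LMO2 use the same cofactor without binding DNA themselves. In cells outside their own lineage, genes of this family are typical targets of PRC2, which keeps them silent through methylation of histone H3 on lysine 27. In erythroid cells LDB1 is instead known for its complex with LMO2, TAL1 and GATA1.

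The libraries held between 17260936 and 24423028 estimated counts. As a check of the labels, JAZF1 was read at 574 and 731 counts with the fusion against 12 and 27 in mock, and SUZ12 at 272 ± 4.19 CPM (counts per 1000000 counts of the library; SD, n = 2) against 134 ± 3.28. The fusion and the endogenous genes share these counts. The source label names uterus. The 12 erythroid markers, with HBG2 and TFRC the most abundant, summed to 12738 and 12448 CPM in mock and to 14680 and 14465 CPM with the fusion. The 12 uterine stromal markers summed to 17.9 and 17.3 CPM in mock and to 35.2 and 36.4 CPM with the fusion. Most of that difference was COL1A1, a collagen gene, at 5.79 ± 0.849 CPM in mock and 21.4 ± 0.0731 with the fusion (SD, n = 2 each; edgeR, adjusted p = 8.75e-08). PGR, HAND2, COL1A2 and DCN were present and not called, LUM was at 0 in every library, and the part of these markers in the members' values was not tested.

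The sequence just before the start of 3 members is shown as an example of how the density of CG pairs varies within the set. They were chosen after their values were seen, and for LHX6 the start with the most CG pairs of 3 was taken. CG pairs, the sites of DNA methylation, are in capitals, and each sequence is written 5′ to 3′ on the gene's own strand and holds no exon base of GENCODE 29 (sequence from RefSeq, GRCh38.p14). The LHX6 stretch lies within the annotated gene, before an inner start.
LHX4, chr1:180230014-180230263, plus strand: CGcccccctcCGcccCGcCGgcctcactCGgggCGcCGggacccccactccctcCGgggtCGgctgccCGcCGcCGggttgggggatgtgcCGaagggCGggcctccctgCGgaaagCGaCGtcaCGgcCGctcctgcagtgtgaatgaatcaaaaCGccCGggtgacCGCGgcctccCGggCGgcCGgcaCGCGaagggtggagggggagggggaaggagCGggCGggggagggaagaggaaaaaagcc
LHX6, chr9:122228434-122228656, minus strand: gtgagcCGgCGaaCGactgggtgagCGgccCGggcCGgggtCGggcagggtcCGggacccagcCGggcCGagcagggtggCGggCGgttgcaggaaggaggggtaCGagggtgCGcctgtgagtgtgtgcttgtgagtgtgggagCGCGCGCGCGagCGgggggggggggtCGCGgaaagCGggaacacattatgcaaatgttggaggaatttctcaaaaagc
ISL2, chr15:76336523-76336723, plus strand: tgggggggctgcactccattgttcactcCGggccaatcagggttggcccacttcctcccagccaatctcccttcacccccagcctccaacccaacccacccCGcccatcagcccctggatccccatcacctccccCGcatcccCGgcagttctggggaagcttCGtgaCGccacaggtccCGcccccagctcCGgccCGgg
The LHX4 stretch holds 30 CG pairs in 250 bases, that of LHX6 23 in 223 bases and that of ISL2 9 in 201 bases. The LHX4 and LHX6 stretches reach their RefSeq starts. That of ISL2 ends earlier, where the GENCODE 29 gene begins, so the CG pairs of its window past that point are left out. The whole promoter windows of LHX6 held 7, 16 and 31 CG pairs and those of LHX9 23 and 21, against 20 for ISL2.

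RefSeq promoter windows of 300 bases, from 250 before to 50 after a start, were found for 8 members, 14 windows in all. LHX1 and LHX5 had none in the table. The median window of a member held 26.5 CG pairs, against 14 over all 35116 windows of the same length, where the quartiles were 4 and 28. Of the 14 windows, 11 lay above the median of all, and these belonged to 7 of the 8 members. LHX8 was the exception, with 13 and 4 CG pairs at its 2 starts. A window of LHX3 held 40 CG pairs, the most of any member and more than in 92.4% of all windows. The letters TAATTA, a homeodomain binding motif that reads the same on both strands, stood in 4.84% of all windows and in 0 of the 14.

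In mock cells the family was represented mainly by LHX6 and ISL2. These 2 genes supplied 86.8% and 88.3% of the members' counts in mock, against 65.7% and 65.6% with the fusion. The members together made up 29.2 and 28.4 CPM in mock and 43.9 and 47.4 CPM with the fusion. More than 3 counts were found for 5 and 6 members in the mock libraries and for 7 and 8 in the JAZF1-SUZ12 libraries. In the plot of CPM by library, LHX1, LHX5 and LHX9 are the members whose groups stand furthest apart among those counted in every library.

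**Figure D1:**
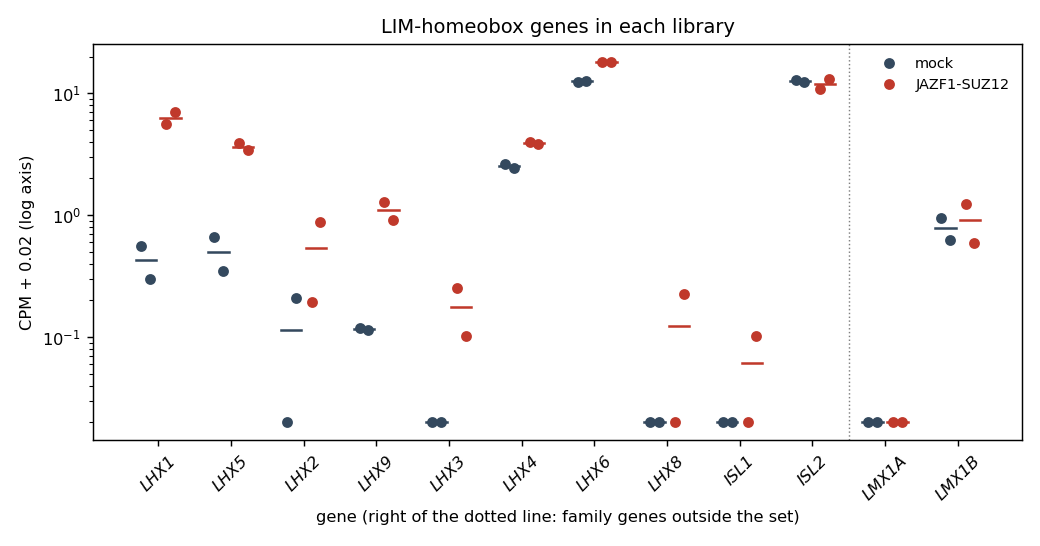
CPM (plus 0.02, log axis) of each LIM-homeobox gene in each of the 2 mock and 2 JAZF1-SUZ12 libraries (points), with group means as lines. LHX1 lies near 0.410 CPM in mock and 6.26 CPM with the fusion, while ISL2 lies near 12.7 and 12.0 CPM; a point at the bottom edge is a count of 0.

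LHX1 and LHX5 are a closely related pair. LHX1 acts in the head organizer of the embryo, the kidney and the female reproductive tract, and LHX5 in the forebrain and spinal cord. LHX1 (ENSG00000273706; chromosome 17, 36936785 to 36944612, plus strand) was read at 11 and 6 estimated counts in mock and at 96 and 170 with the fusion. Both mock libraries were low and both fusion libraries high, with no overlap. That is 0.410 ± 0.181 CPM in mock and 6.26 ± 0.989 CPM with the fusion (SD, n = 2 each). This is a log2 fold change of 3.91 (SE 0.34), or 15.0-fold (SE is the standard error of the fit), and it ranged from 3.50 without mock replicate 2 to 4.42 without mock replicate 1. Among 14750 genes tested, it was the 66th largest log2 fold change.

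LHX5 (ENSG00000089116; chromosome 12, 113462034 to 113472280, minus strand) had 13 and 7 counts in mock and 67 and 83 with the fusion. Again the groups were well apart, and the fusion libraries differed little from each other. Its level was 0.482 ± 0.217 CPM in mock and 3.64 ± 0.342 CPM with the fusion (SD, n = 2 each). LHX5 was thus 7.37-fold higher, 2.88 on the log2 scale (SE 0.40), and between 2.47 and 3.41 when 1 library was left out.

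LHX9 and LHX2 form a second pair. LHX9 acts in the early gonad and limb, and LHX2 in the forebrain, the eye and the hair follicle. LHX9 (ENSG00000143355; chromosome 1, 197911902 to 197935478, plus strand) was at 2 counts in each mock library and at 22 in each fusion library, so that the groups were clearly apart. Its mock counts are too few for a firm ratio: the summed counts per library size were 11.0 times higher with the fusion, with an exact 95% interval from 4.01 to 42.2 that covers counting error only. The fit put LHX9 at 3.39 on the log2 scale (SE 0.73).

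LHX2 (ENSG00000106689; chromosome 9, 124001670 to 124033301, plus strand) had 0 and 4 counts in mock and 3 and 21 with the fusion. Only the second fusion library was clearly high. In CPM the first fusion library, at 0.174, lay below the second mock library, at 0.188, so the groups overlapped. The ratio of summed counts was 6.01, with an exact 95% interval from 2.06 to 23.8. With no filter on low counts the fitted log2 fold change of LHX2 was 2.38; it was 6.49 without mock replicate 2, where the remaining mock library is at 0, and 1.47 without mock replicate 1.

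LHX3 and LHX4 direct the formation of the pituitary and of motor neurons. LHX4 was counted in every library and LHX3 was not. LHX4 (ENSG00000121454; chromosome 1, 180230286 to 180278982, plus strand) had 53 and 52 counts in mock and 68 and 93 with the fusion. In CPM the fusion libraries were close to each other and above both mock libraries: 3.87 ± 0.0931 CPM against 2.52 ± 0.107 CPM (SD, n = 2 each). On the log2 scale LHX4 was 0.60 higher (SE 0.25). The 3′ end of LHX4 overlaps ACBD6 on the other strand, and strand use in counting is not given in the sources used here. ACBD6, at 70.6 ± 1.49 CPM in mock and 61.3 ± 3.64 with the fusion (SD, n = 2 each), went the other way, with a log2 fold change of -0.23 (SE 0.06; edgeR, adjusted p = 0.0168, from 0.00114 to 0.206 over 10 alternative fits, DESeq2 not calling it). LHX3 (ENSG00000107187; chromosome 9, 136196250 to 136205128, minus strand) had 4 and 2 counts with the fusion and 0 in both mock libraries, too few for a fold.

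LHX6 and LHX8 act in the ventral forebrain, where LHX6 guides interneurons and LHX8 cholinergic neurons. LHX6 (ENSG00000106852; chromosome 9, 122202577 to 122229626, minus strand) was well expressed in every library, with 253 and 269 counts in mock and 309 and 441 with the fusion. Scaled for depth, the replicates were nearly equal and the groups did not overlap: 12.5 ± 0.181 CPM in mock and 18.0 ± 0.110 CPM with the fusion (SD, n = 2 each). LHX6 was 1.42-fold higher, 0.50 on the log2 scale (SE 0.11), and lay between 0.48 and 0.51 when 1 library was left out. The authors' deposited table puts LHX6 at 0.0056 (SE 0.23) instead. The reason for this gap was not tested. LHX8 (ENSG00000162624; chromosome 1, 75128434 to 75161533, plus strand) had 5 counts in 1 fusion library and 0 in the other 3 libraries.

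ISL1 and ISL2 mark motor and sensory neurons, and ISL1 also the pancreatic islet and the early heart. ISL2 (ENSG00000159556; chromosome 15, 76336724 to 76342476, plus strand) had 265 counts in each mock library and 188 and 318 with the fusion. The fusion libraries lay on either side of mock: 12.0 ± 1.51 CPM against 12.7 ± 0.367 CPM (SD, n = 2 each), or -0.10 on the log2 scale (SE 0.13). ISL1 (ENSG00000016082; chromosome 5, 51383391 to 51394738, plus strand) had 2 counts in 1 fusion library and none elsewhere.

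Of the family genes outside the set, LMX1B was not called and LMX1A was not detected. LMX1B, which acts in the limb and in midbrain dopamine neurons, had 19 and 13 counts in mock and 21 and 14 with the fusion, 0.16 on the log2 scale (SE 0.55; edgeR, adjusted p = 0.87). Its sign turned when 1 library was left out, to -0.46 without JAZF1-SUZ12 replicate 1 and -0.12 without mock replicate 2, against 0.65 without JAZF1-SUZ12 replicate 2. LMX1A had 0 counts in every library.

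Both JAZF1-SUZ12 libraries lay above both mock libraries in CPM for 6 members, LHX1, LHX5, LHX9, LHX3, LHX4 and LHX6. The same held for 18.2% of all 35606 genes, detected or not, and for 33.8% of the genes tested. Enough counts for the test were found for 6 members (LHX1, LHX5, LHX9, LHX4, LHX6 and ISL2), and LHX1, LHX5 and LHX9 of these had at least 10 counts in 1 mock library or none, so that they were tested because they were high with the fusion. Of the 6, edgeR called 4 higher (LHX1, LHX5, LHX9 and LHX6) and 0 lower at an adjusted p of 0.05, beside 24.7% of all tested genes called, 13.3% as higher and 11.4% as lower. DESeq2 also called 4, beside 9.19% of genes, and 3 were both called and at least 2-fold higher, beside 5.55%. Since the set was chosen on this comparison, nothing is read from these counts. The median log2 fold change was 1.74 over these 6 and 0.0032 over all genes tested. LHX1, LHX9 and LHX5 lay at 2.88 or more and LHX4, LHX6 and ISL2 at 0.60 or less, so no member lay near this median. Nothing is read from it either. With the counting bound of LHX9 in place of its fitted value, the median was 1.30. In the plot of all genes, LHX1, LHX9 and LHX5 lie high, with the 66th, 100th and 151st largest log2 fold changes among the 14750 genes tested.

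**Figure D2:**
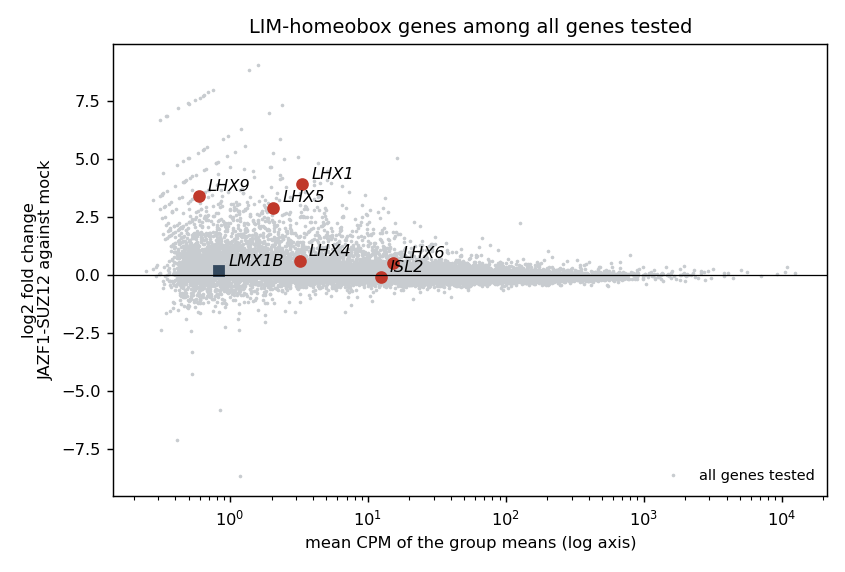
Log2 fold change, JAZF1-SUZ12 over mock, (vertical) by mean CPM (log axis) for the 14750 genes tested, with the 6 tested members as red circles and LMX1B as a blue square. LHX1, LHX9 and LHX5 lie at 3.91, 3.39 and 2.88, LHX4 and LHX6 at 0.60 and 0.50, and ISL2 at -0.10.

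The authors' deposited table lists all 10 members and gives 7 of them an adjusted p. Of these, 3 were called higher there, where 4.93% of the genes with an adjusted p were. Its log2 fold changes were 4.70 for LHX1, 2.89 for LHX5, 4.85 for LHX9, 0.71 for LHX4 and -0.11 for ISL2. LHX2, which had too few counts for the edgeR test, was at 3.66 (SE 1.63) there and was not called. LHX1 and LHX9 were thus further from mock in the authors' deposited table, LHX5, LHX4 and ISL2 were within 1 standard error of the values from the counts, and LHX6 showed no difference there.

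**Figure D3:**
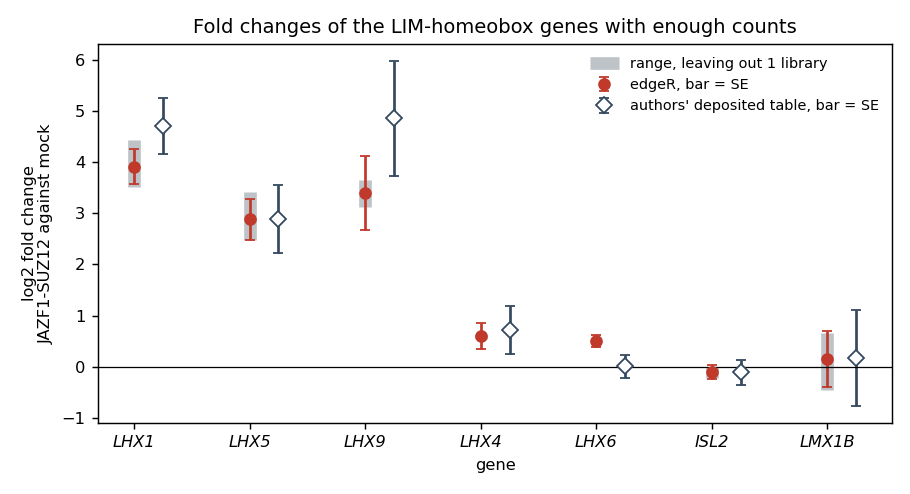
Log2 fold change, JAZF1-SUZ12 over mock, for the tested family genes, from the counts with edgeR (red circles), with the range when 1 library is left out (grey), and from the authors' deposited table (open diamonds); bars are standard errors. LHX6 stands at 0.50 from the counts and 0.0056 in the authors' deposited table.

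Levels of different genes were compared per kilobase of the longest annotated transcript. In mock, ISL2 came first at 6.75 ± 0.195 CPM per kb, then LHX6 at 3.49 ± 0.0505 and LHX4 at 0.432 ± 0.0183 (SD, n = 2 each). LHX5 and LHX1 followed at 0.164 ± 0.0739 and 0.120 ± 0.0529 CPM per kb and did not differ beyond their spread; LHX2 and LHX9 were lower still. With the fusion, ISL2 and LHX6 stayed first and second at 6.36 ± 0.800 and 5.01 ± 0.0306 CPM per kb. LHX1, at 1.83 ± 0.289, and LHX5, at 1.24 ± 0.116, came next, both now above LHX4 at 0.666 ± 0.0160 CPM per kb. LHX2 and LHX9, at 0.202 ± 0.190 and 0.139 ± 0.0337, did not differ beyond their spread. So even at 15.0-fold above mock, LHX1 stood below the level that LHX6 had in mock. In bulk libraries, fewer cells with the gene and less RNA per cell cannot be told apart.

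The genes beside the members were read next. For each member the nearest tested gene on either side was taken from GENCODE 29, 20 genes in all. By edgeR 3 of the 20 were higher and 2 lower, beside 13.3% and 11.4% over all genes. None of the 6 beside LHX1, LHX5 and LHX9 was called higher, and their median log2 fold change was -0.12. Their distances ran from 4263 bases (AATF) to 344458 bases (RBM19), with MRM1 at 327814 and NEK7 at 221485. Any nearer gene with too few counts was passed over, and 6 genes are too few to set against 13.3%. How far a change reaches around a member was not tested. AATF, a transcriptional coregulator that starts 4263 bases past the end of LHX1, had a log2 fold change of -0.15 (SE 0.05; edgeR, adjusted p = 0.0367); its adjusted p ran from 0.0217 to 0.135 over 10 alternative fits, and DESeq2 did not call it. C1orf53, 4535 bases from LHX9, was at 0.05 (SE 0.62).

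The neighbours called higher were NEK6, QSOX1 and PARP8. NEK6, a mitotic kinase 224305 bases from LHX2, rose by 0.45 on the log2 scale (edgeR, adjusted p = 0.00356). QSOX1, a secreted sulfhydryl oxidase 26256 bases from LHX4, rose by 0.32 (edgeR, adjusted p = 0.00123). DESeq2 also called NEK6 and QSOX1, but the authors' deposited table called neither. PARP8, 536869 bases from ISL1, rose by 0.71 (edgeR, adjusted p = 0.0348), but was not called by DESeq2 (adjusted p = 0.146, the range over 10 alternative fits being 0.0225 to 0.146). TYW3, beside LHX8 at 361756 bases, fell by 0.19 (edgeR, adjusted p = 0.0413) and also lost its call with DESeq2 (adjusted p = 0.194, range 0.0262 to 0.194).

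**Figure D4:**
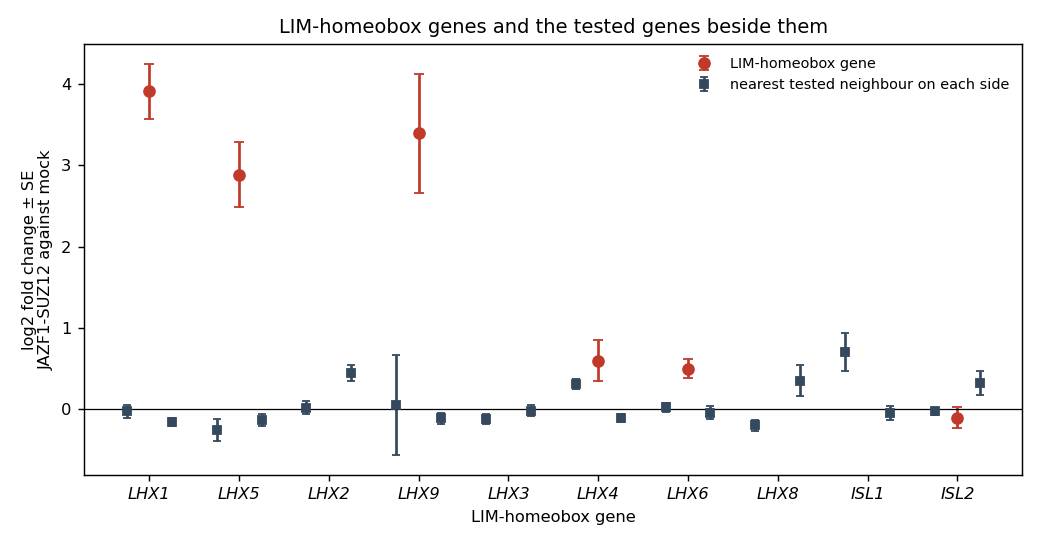
Log2 fold change and SE, JAZF1-SUZ12 over mock, for each tested LIM-homeobox gene (red circles) and for the nearest tested gene on its left and right (blue squares). The squares beside LHX1, LHX5 and LHX9 lie between -0.25 and 0.05, while those genes themselves lie between 2.88 and 3.91; members without a circle had too few counts.

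None of the partners of LIM domains was called higher. Of 10 cofactors and LIM-only genes, 7 were tested, 0 were higher and 2 lower by edgeR, beside 13.3% and 11.4% of all genes, and their median log2 fold change was -0.06. LDB1, the shared cofactor, was abundant in every library, at 242 ± 0.954 CPM in mock and 236 ± 7.37 CPM with the fusion (SD, n = 2 each), or -0.06 on the log2 scale (SE 0.05; edgeR, adjusted p = 0.387). LMO2, the LIM-only partner of TAL1, had 1674 and 1714 counts in mock and 1204 and 1562 with the fusion. It fell by 0.31 on the log2 scale (SE 0.06; edgeR, adjusted p = 0.00219), from 81.2 ± 0.988 to 66.9 ± 4.10 CPM (SD, n = 2 each). SSBP4, which protects LDB1 from degradation, fell by 0.20 (edgeR, adjusted p = 0.0128), a call lost without JAZF1-SUZ12 replicate 2 or mock replicate 2 (adjusted p from 0.0018 to 0.0837 over 10 alternatives). SSBP2, SSBP3, RLIM and LMO4 lay between -0.07 and 0.08 and were not called. LDB2 and LMO1 had 0 counts in every library, and LMO3 had at most 2.

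The erythroid complex built on LDB1 was examined with its regulators. All 10 genes were tested. By edgeR 0 were higher and 5 lower, beside 13.3% and 11.4% of all genes, with a median log2 fold change of -0.14. This list, like the other gene lists, was chosen with earlier results of these data known, so no excess of calls is read from it. RUNX1, a regulator of blood stem cells and megakaryocytes, stood at 103 ± 6.37 CPM in mock and 82.7 ± 4.67 with the fusion (SD, n = 2 each), and fell by 0.34 on the log2 scale (SE 0.06; edgeR, adjusted p = 0.00076). GFI1B, a repressor needed for red cells and platelets, stood at 124 ± 2.72 CPM in mock and 99.9 ± 0.191 with the fusion (SD, n = 2 each), and fell by 0.33 (edgeR, adjusted p = 0.000271). CBFA2T3, the corepressor known as ETO2, fell by 0.29 (edgeR, adjusted p = 0.00118). These 3 were called in all 10 alternative fits, as was LMO2, but the authors' deposited table calls RUNX1, GFI1B and LMO2 and not CBFA2T3.

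TCF3 and LYL1, basic helix-loop-helix factors of the same complex, fell by 0.18 each (edgeR, adjusted p = 0.0132 and 0.0184). Both calls were lost without mock replicate 2, where TCF3 lay at -0.14 and LYL1 at -0.13 on the log2 scale. The call of TCF3 was also lost without JAZF1-SUZ12 replicate 2, at -0.15. The authors' deposited table called neither. TAL1, GATA1 and KLF1, the factors that name the erythroid programme, lay at -0.03, 0.04 and 0.02 on the log2 scale, short of the threshold (edgeR, adjusted p = 0.675, 0.562 and 0.864). GATA2 and TCF12 lay at -0.11 and 0.10 and were not called either. All of the changes in this complex were below 2-fold. Over the same libraries 7 of 12 erythroid markers were called higher and 0 lower, HBZ among them, beside 13.3% and 11.4% of all genes; the part of erythroid state in the 5 decreases was not tested.

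**Figure D5:**
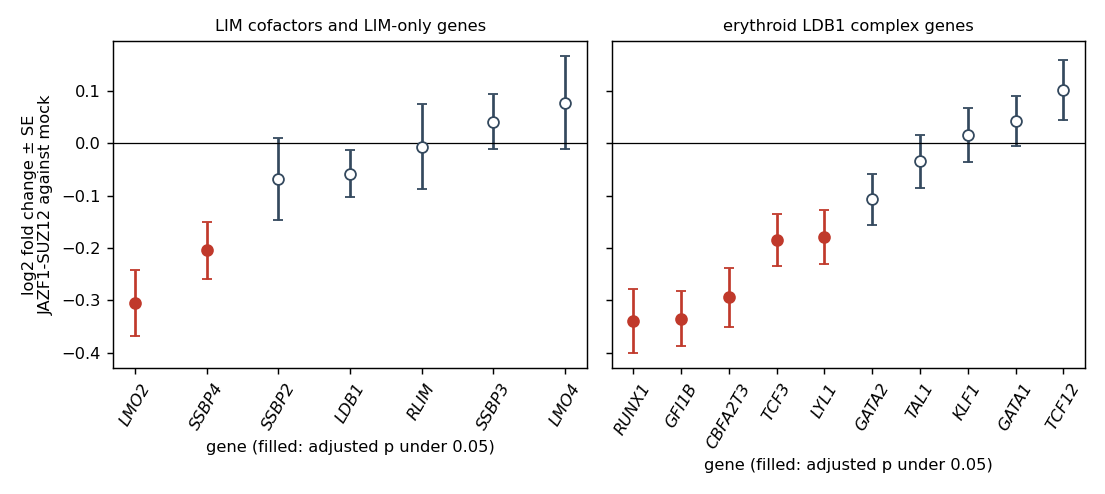
Log2 fold change and SE, JAZF1-SUZ12 over mock, for the tested LIM cofactors and LIM-only genes (left) and for genes of the erythroid LDB1 complex (right); filled red points passed an adjusted p of 0.05 in edgeR. LMO2 and SSBP4 are the called genes on the left, and RUNX1, GFI1B, CBFA2T3, TCF3 and LYL1 on the right, all below 0.

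Genes that LIM-homeodomain factors are known to act on or with showed no single direction. Of 37 such genes other than the members, 20 had at most 3 counts in every library and 12 could be tested, of which 4 were higher and 2 lower by edgeR, beside 13.3% and 11.4% of all genes. DESeq2 called 1 higher and 2 lower, as did edgeR without JAZF1-SUZ12 replicate 2. SATB1, a chromatin organizer that works after LHX6 in interneurons, had 89 and 102 counts in mock and 226 and 372 with the fusion, and rose by 1.61 on the log2 scale (SE 0.16; edgeR, adjusted p = 2.1e-06). The authors' deposited table puts SATB1 at 1.07.

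DLX1, a homeobox gene that precedes LHX6 in the ventral forebrain, went the other way: 377 and 442 counts in mock and 167 and 315 with the fusion. It fell by 0.80 (SE 0.13; edgeR, adjusted p = 0.000376). MEF2C, a transcription factor of heart and interneurons, fell by 0.22 (edgeR, adjusted p = 0.00617; 0.00052 to 0.0539 over 10 alternatives, the highest without mock replicate 1), and MNX1, the motor neuron gene, rose by 0.31 (edgeR, adjusted p = 0.0308). DESeq2 did not call MNX1 (adjusted p = 0.16, over 10 alternatives from 0.0215 to 0.185). No count was found for several genes of the tissues where members act: the cholinergic transporters SLC18A3 and SLC5A7, the pituitary hormones TSHB, FSHB and PRL, and OTX2, GSC and CER1 had 0 counts in every library. Other genes of the list were counted at low levels. CHAT had 0 and 3 counts in mock and 3 and 4 with the fusion, and CXCR4 3 and 1 against 7 and 18. CGA had 7 and 2 in mock and 3 and 0 with the fusion. GNRHR, with 30 and 13 against 21 and 20, was tested and not called.

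Of 20 neural markers, 6 were tested, 1 was called higher and 0 lower by edgeR, beside 13.3% and 11.4% of all genes, and 11 had at most 3 counts in every library. ELAVL3, ELAVL4 and STMN2, which define neurons, had 0 counts throughout. The untested markers with more than 3 counts in a library were NEUROG2, RBFOX3 and SNAP25. NEUROG2 had 4 and 3 counts in mock and 13 and 11 with the fusion. RBFOX3 had 7 and 3 in mock and 7 and 18 with the fusion. SNAP25 had 4 and 0 in mock and 0 and 0 with the fusion. The gene called was SYP, which encodes the synaptic vesicle protein synaptophysin and was already present in mock at 39.4 ± 0.795 CPM. It rose to 71.8 ± 3.02 CPM (SD, n = 2 each), by 0.85 on the log2 scale (SE 0.06; edgeR, adjusted p = 1.25e-07). The list summed to 130 and 135 CPM in mock and to 166 and 167 CPM with the fusion, a difference made up mostly by SYP itself. NES, PAX6, TUBB3, GFAP and NEUROD1 were not called.

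The genes closest to LHX1 and LHX5 over the 4 libraries were sought among 14221 tested genes with a symbol, by Euclidean distance of log2(CPM + 0.5). Closest to LHX1 were ARHGAP10, CKAP4 and EMX1, at distances of 0.317, 0.469 and 0.470. EMX1, a homeobox gene of the cerebral cortex, had 12 and 7 counts in mock and 134 and 183 with the fusion. Closest to LHX5 were SERPINE2, NGEF and CA2, at 0.221, 0.258 and 0.338. SERPINE2, a secreted protease inhibitor, had 11 and 7 counts in mock and 60 and 76 with the fusion. With 4 libraries in 2 groups, this measure mostly matches a gene's 2 group levels.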

How the data were processed

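Poly(A)-selected, directional RNA-seq libraries of K562 cells were analysed, 2 per group. The authors deposited estimated counts per gene, not normalized; per the submitters' processing notes, kallisto 0.46.2, DESeq2 1.30.1 and build hg38 were used, and the annotation is not given in the sources used here. Between 29.9% and 33.6% of a library's values were not whole; 8 of the 10 members had whole estimated counts in every library (tolerance 1e-06), LHX4 and LHX9 being the others. The authors also deposited their own comparison: a mean normalized count (signal), a log2 fold change with its standard error, a test score and p-values, in the columns that DESeq2 writes, per the file headers.

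Counts were rounded. Genes were kept with filterByExpr, which asks for about 10 counts in 2 libraries, scaled with TMM and compared over all 14750 genes with glmQLFTest, the quasi-likelihood test of edgeR 4.0.16 (R 4.3.3), two-sided, with group as the only term and Benjamini-Hochberg adjustment at 0.05. The standard error was obtained from the log2 fold change and its F. CPM is the rounded count per 1000000. Intervals of count ratios are exact binomial (95%) and cover counting error only. Low counts limit the precision of LHX2, LHX3, LHX8, LHX9 and ISL1. Low mock counts also limit the folds of LHX1 and LHX5. The intervals of their count ratios ran from 9.60 to 27.3 for LHX1 and from 4.69 to 12.6 for LHX5. Positions come from GENCODE 29 and promoters from RefSeq. The edgeR fit was tested on simulated data with 2-fold changes only in genes with a mean of at least 50 counts. Recovery of changes at lower counts was not tested.

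The members and gene lists were chosen with earlier results of these data known. The genes named are the members, LMX1A, LMX1B, the partner and neighbour genes, up to 5 called genes of smallest p in the target and neural lists, and the 3 closest to LHX1 and LHX5; undetected genes and a few others were added to complete a count. Some genes of the target list enter its counts but are not reported here by name. Alternatives were other scalings (DESeq2 size factors, total counts), DESeq2 1.42.0, other filters, stricter thresholds, a replicate block and leaving out each library. No protein sequence or antisense transcript was analysed here.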

Additional observations from a re-analysis of the deposited data

How the results depend on the processing

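Of the 6 tested members, each kept the sign of its log2 fold change in every alternative that gave it a value. For ISL2, whose groups overlapped, this says little, as it ran from -0.23 to -0.0026 when 1 library was left out. LHX1, LHX5 and LHX9 were tested because they were high with the fusion, so their sign was nearly given. The 4 members called higher became 2 when a mean of at least 50 counts was asked, since LHX5 and LHX9 then left the test, and ranged from 4 to 5 when 1 library was left out, LHX2 being added. The median over tested members, 1.74, was 2.99 with no filter (10 members), 0.57 at a mean of at least 50 counts (4 members), and from 1.47 to 2.77 when 1 library was left out; a lone library is then assumed to vary like the other group. The 3643 calls over all genes became 2407 with DESeq2, where the cause was not tested, 2045 at an adjusted p under 0.01, and 837 at an adjusted p under 0.05 with at least a 2-fold change, of which 819 were higher and 18 lower. The thresholds lower counts by construction. At 0.01 the called cofactors numbered 1, the erythroid LDB1 complex genes 3 and the LIM-homeodomain targets 3, and with the 2-fold demand 0, 0 and 2, and 0 neural markers; DESeq2 called 3 targets. Leaving out 1 library gave 1 to 2 cofactors (1 without JAZF1-SUZ12 replicate 2 or mock replicate 2), 3 to 5 complex genes (3 without mock replicate 2) and 3 to 4 targets (3 without JAZF1-SUZ12 replicate 2). A fit that took the replicate number as a block called 4061 genes, 4 members and 7 targets; replicate 1 of the 2 groups did not deviate together (correlation 0.028 over 11826 genes), so the numbers are not taken as pairs.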
